A study of Arabidopsis thaliana with 11 samples.

Results

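Trehalose-6-phosphate phosphatases (TPPs) form a family of 10 genes in *Arabidopsis thaliana*, *TPPA* (AT5G51460), *TPPB* (AT1G78090), *TPPC* (AT1G22210), *TPPD* (AT1G35910), *TPPE* (AT2G22190), *TPPF* (AT4G12430), *TPPG* (AT4G22590), *TPPH* (AT4G39770), *TPPI* (AT5G10100) and *TPPJ* (AT5G65140). They were taken by gene ID from the 33341 genes counted by RNAseq in roots, and all 10 had a row in the count files of every sample. Expression was compared between wild type (WT, Columbia-0) and *BRL3ox* roots, watered or in drought. *BRL3ox* plants express BRL3, a brassinosteroid receptor kinase of the vascular tissue, fused to GFP from the 35S promoter. This promoter is active in most cells of the plant, so that expression need not be limited to the cells in which *BRL3* is normally active. The study reports that the overexpressed receptor was enriched in the vascular tissues of the root. The labels give this transgene no line number. All plants were raised for 7 days on medium lacking sucrose and for 16 days in soil before the treatment, and whole root systems were taken at 28 days according to the labels, where the study's methods give 3 weeks. Drought was 5 days without water, and control plants were watered throughout. Each group had 3 samples apart from *BRL3ox* control, which had 2 (replicates 1 and 3).

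Plants make trehalose in a short pathway. Trehalose-6-phosphate synthases (TPSs) join UDP-glucose and glucose-6-phosphate into trehalose-6-phosphate (T6P), a TPP removes the phosphate to give trehalose, and trehalase (TRE1) splits trehalose into glucose. T6P follows the sucrose content of plant cells and inhibits the kinase SnRK1, which is active when sugar is scarce, so that a TPP both makes trehalose and removes a signal of sugar supply. Several members have known roles in stress: *TPPD* in salt tolerance and redox control, *TPPE* in the control of root growth by abscisic acid (ABA), *TPPF* in drought tolerance, and *TPPG* and *TPPI* in stomatal control. *TPPA* and *TPPB* were the first members isolated, by rescue of a yeast mutant, and *TPPB* also acts in leaf growth.

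Between 18610736 and 22817390 counts per sample fell on genes. Values are normalized counts in CPM (counts relative to the library size scaled by TMM), or as CPM per kb of exon where genes are compared with each other. *BRL3* itself was higher in *BRL3ox* roots by 4.40 (control) and 5.54 (drought) on the log2 scale. Between drought and control, *BRL3* differed by 1.12 on this scale in *BRL3ox* roots and by -0.01 in WT roots. In *BRL3ox* roots it was at 974.1 and 1652 CPM in control and at 2447 to 3180 CPM in drought. The part of this difference in receptor RNA in the values of the members was not tested. The 6 root markers (among them *PYK10*, *CASP1* and *COBL9*) were detected in every sample. WT control replicate 2 stood apart by its shoot markers. Its 11 photosynthesis genes, markers of shoot tissue, summed to 414.4 CPM against 23.5 to 209.8 CPM in the other 10 samples. Its 7 touch and wound genes (*TCH2*, *TCH3*, *TCH4*, *WRKY40*, *WRKY33*, *ZAT10* and *RRTF1*) summed to 2664 CPM against 3851 and 5266 CPM in the other WT control samples. In *BRL3ox* control samples they summed to 2074 and 2606 CPM. Over all genes, replicate 2 did not stand apart in its group. The chi-square per degree of freedom was 14.3 between WT control replicates 1 and 2, 21.28 between 1 and 3, and 44.25 between 2 and 3. Because of its shoot markers, calls of members and of the pathway genes that change without WT control replicate 2 are given.

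The 10 genes are spread over chromosomes 1, 2, 4 and 5 of TAIR10.1 and encode proteins of related sequence. Their annotated coding sequences range from 963 (*TPPC*) to 1158 bases (*TPPA*), and pairwise identity of the coding sequences ran from 55.91 to 82.57% over 45 pairs (median 63.31%). The closest pairs were *TPPF* and *TPPG* (82.57%), *TPPE* and *TPPH* (80.79%), *TPPI* and *TPPJ* (78.32%) and *TPPB* and *TPPC* (74.61%). Despite this likeness, no member shared a stretch of 45 bases, the length of a trimmed read, with any other annotated transcript (0.0% for each of the 10), so that reads could be told apart between members. *TPPA* is the exception in another respect: it overlaps *AT5G51465* on the opposite strand, and since the strand setting of the counting is not given in the sources used here, reads of *TPPA* and of this neighbour cannot be told apart with certainty.

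The members that responded to drought fell into 2 sets with opposite directions, and the 250 bases upstream of their annotated starts are shown here, as given by RefSeq for TAIR10.1, to set the genes of each set beside each other. Each runs 5′ to 3′ towards the gene, and capitals mark ACGTG on either strand, the core of the ABA-responsive element, extended to CACGTG (the G-box) where these letters are present. *TPPB* (chr1:29373553-29373802, plus strand) and *TPPH* (chr4:18451306-18451555, minus strand) had lower counts in drought. *TPPG* (chr4:11896481-11896730, minus strand), *TPPI* (chr5:3157444-3157693, plus strand) and *TPPF* (chr4:7368731-7368980, minus strand) had higher counts.
TPPB: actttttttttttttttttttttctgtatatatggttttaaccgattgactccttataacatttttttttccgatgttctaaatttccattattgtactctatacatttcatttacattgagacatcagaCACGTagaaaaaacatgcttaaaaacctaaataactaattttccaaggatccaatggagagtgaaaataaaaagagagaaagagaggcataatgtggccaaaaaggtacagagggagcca
TPPH: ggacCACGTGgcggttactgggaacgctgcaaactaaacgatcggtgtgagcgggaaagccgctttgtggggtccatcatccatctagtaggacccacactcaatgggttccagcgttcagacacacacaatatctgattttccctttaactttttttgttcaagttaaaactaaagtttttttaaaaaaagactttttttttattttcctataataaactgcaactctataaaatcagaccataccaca
TPPG: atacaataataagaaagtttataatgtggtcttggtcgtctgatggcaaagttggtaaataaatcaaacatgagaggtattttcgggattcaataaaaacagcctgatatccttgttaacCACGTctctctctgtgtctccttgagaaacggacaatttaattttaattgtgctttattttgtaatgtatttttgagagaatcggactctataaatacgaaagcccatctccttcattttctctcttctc
TPPI: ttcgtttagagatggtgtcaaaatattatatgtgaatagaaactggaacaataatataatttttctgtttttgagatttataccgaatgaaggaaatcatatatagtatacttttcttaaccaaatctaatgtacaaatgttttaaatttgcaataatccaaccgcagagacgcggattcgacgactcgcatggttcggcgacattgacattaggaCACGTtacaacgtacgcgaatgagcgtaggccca
TPPF: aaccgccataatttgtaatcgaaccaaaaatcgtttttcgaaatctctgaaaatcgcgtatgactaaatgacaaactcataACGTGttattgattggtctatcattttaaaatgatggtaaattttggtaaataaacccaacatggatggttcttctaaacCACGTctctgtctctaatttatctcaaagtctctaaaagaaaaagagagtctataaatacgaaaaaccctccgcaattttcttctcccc

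Of the 10 upstream windows, 8 hold ACGTG on at least one strand, all but those of *TPPC* and *TPPD*, where 22.91% of 27443 windows of the same length upstream of protein-coding genes do. CACGTG, which contains ACGTG on both strands, was found upstream of *TPPE*, *TPPH* and *TPPJ* (6.49% of all windows). CCGAC, the core of the dehydration-responsive element, was found upstream of *TPPA* alone among the members (11.97% of all windows), and CGTGCG (1.57%) and CGTGTG (5.37%), forms of the brassinosteroid-responsive element, were found upstream of none. All motifs were searched on both strands, and no motifs other than those named were searched. Runs of at least 12 identical bases on the strand of the gene, runs of low complexity left out, were found in the windows of the closest pairs *TPPF* and *TPPG*, and *TPPE* and *TPPH*, and in no other pair of members. *TPPF* and *TPPG*, the closest pair by coding sequence and both in the set with higher counts in drought, have in common the 15-base run tctataaatacgaaa, 40 and 43 bases before their starts, and the 12-base run aacCACGTctct, which holds their shared ACGTG. A further 12-base run of *TPPF* and *TPPG*, ttggtaaataaa, begins 126 and 199 bases before their starts. *TPPE* and *TPPH* share the 13-base run ggacCACGTGgcg at different distances from the start, 85 and 250 bases. The window of *TPPH* begins with this run, so that a longer match could not be seen. The stretches around CACGTG, with these letters in capitals, are as follows for *TPPE* (chr2:9436720-9436743), *TPPH* (chr4:18451532-18451555) and *TPPJ* (chr5:26022438-26022461), all on the minus strand.
TPPE: ggacCACGTGgcgcttgatgggaa
TPPH: ggacCACGTGgcggttactgggaa
TPPJ: gggaCACGTGgccttagaaaggga
Of these 3 genes, *TPPH* was called by edgeR's quasi-likelihood test in 3 of the comparisons that follow, and *TPPE* and *TPPJ* in none. DESeq2 and the likelihood ratio test also called *TPPH* and *TPPJ* under control conditions. A match of letters describes the window and does not show that a factor binds there.

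*TPPG* gave the most counts of the family in WT roots. Per kb of exon, its level in WT control roots was 115.2 CPM per kb (range 67.8 to 152.0, n = 3), against 52.6 CPM per kb (45.6 to 56.8) for *TPPE*, the next in order. *TPPI* (30.0 CPM per kb), *TPPB* (24.9), *TPPH* (22.0), *TPPD* (17.7) and *TPPJ* (17.0) followed, and the ranges of neighbours in this part of the order overlapped, so that their order is not resolved. *TPPA* (3.66 CPM per kb) and *TPPF* (2.06 CPM per kb) were low. *TPPC* was close to undetected, with 2 counts in WT control replicate 3 and 0 in the other 10 samples. A count of 0 allows up to 3 counts, or 0.127 to 0.163 CPM at the depth of these samples. *TPPC* did not pass the filter on low counts, so that 9 of the 10 members were tested.

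The order of the family differed between groups. In *BRL3ox* control roots *TPPG* no longer led: *TPPE* (59.8 CPM per kb), *TPPB* (59.3) and *TPPG* (50.6) had overlapping ranges, and *TPPH* followed at 37.7 CPM per kb. In drought *TPPG* led in both genotypes, with 202.9 CPM per kb in WT and 141.7 CPM per kb in *BRL3ox* roots, ahead of *TPPI* (58.7 and 61.1 CPM per kb). As a share of the summed level of the family per kb, *TPPG* made up 39.4 ± 9.21% (SD, n = 3) in WT control, 54.6 ± 6.45% (SD, n = 3) in WT drought, and 45.1 ± 3.42% (SD, n = 3) in *BRL3ox* drought roots, but 18.6 and 22.5% in the 2 *BRL3ox* control samples. The shares of *TPPB* and *TPPH* lay the other way. *TPPB* made up 22.2 and 26.2% in the *BRL3ox* control samples, against 9.08 ± 3.33% (SD, n = 3) in WT control and 1.81 ± 0.25% (SD, n = 3) in WT drought roots. *TPPH* made up 14.6 and 16.1% in the *BRL3ox* control samples, against 8.02 ± 2.84% (SD, n = 3) in WT control and 2.51 ± 0.34% (SD, n = 3) in WT drought roots. The summed level of the family was 285.1 ± 47.8 CPM per kb (SD, n = 3) in WT control, 373.5 ± 52.2 (SD, n = 3) in WT drought, 238.8 and 252.8 in *BRL3ox* control, and 314.4 ± 6.72 CPM per kb (SD, n = 3) in *BRL3ox* drought roots. The stacked shares by sample show this change of make-up.

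**Figure D1:**
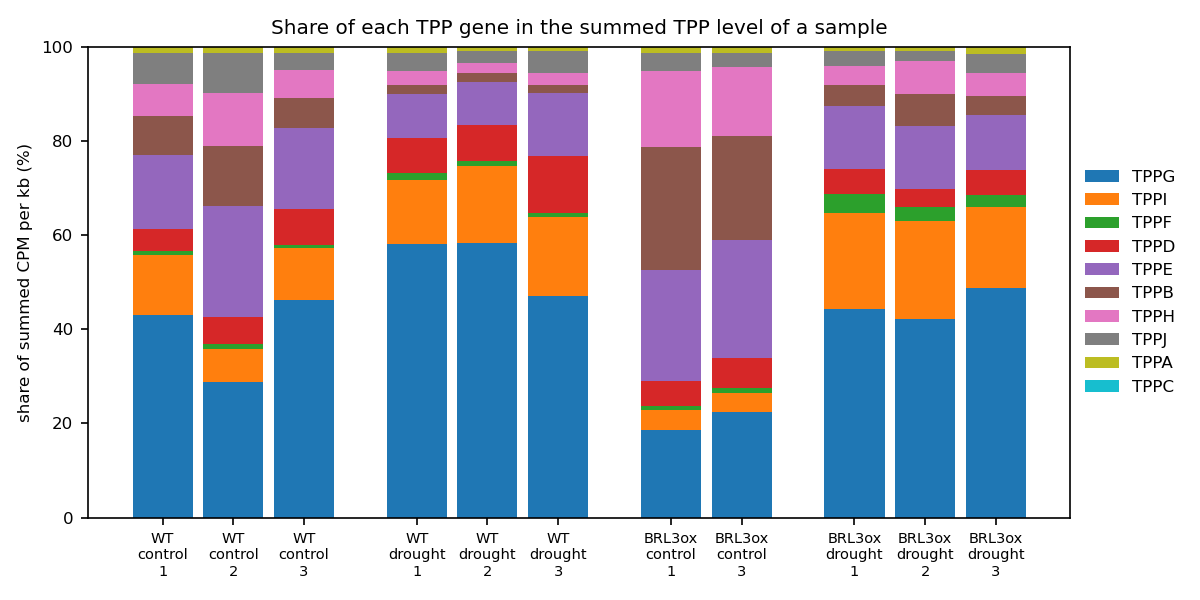
Share of each *TPP* gene in the summed family level (CPM per kb of exon, in %) for each of the 11 samples; each bar is 1 sample and adds up to 100%. *TPPG* (bottom) made up 18.6 and 22.5% in the *BRL3ox* control samples and between 28.9 and 58.4% in all others, and *TPPC* is too low to be seen.

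The response to drought was asked within each genotype, from the same model over all 11 samples. Genes were called at a Benjamini-Hochberg false discovery rate (FDR) under 0.05 and a fold change over 1.5. In WT roots, 5 of the 9 tested members were called, where 12.4% of all tested genes were called. *TPPB* and *TPPH* fell (2 of 9, against 4.84% of all tested genes), and *TPPF*, *TPPG* and *TPPI* rose (3 of 9, against 7.54%). In *BRL3ox* roots the calls were the same 5 members in the same directions, where 16.1% of all tested genes were called (6.98% lower and 9.14% higher). The comparisons within the genotypes share no samples, but they share the estimate of the spread and the scaling of counts. Same-numbered samples of different groups also deviated together to a degree (mean r 0.15), so that the calls in the genotypes need not be independent. With calls in both directions, the median log2 fold change of the 9 members was that of a member not called in either genotype. This median was near 0 (-0.01 in WT and 0.07 in *BRL3ox*), as it was over all tested genes (-0.02 in both).

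*TPPB* was measured at 40.9, 51.0 and 35.2 CPM in WT control roots and at 11.1, 12.5 and 10.8 CPM in WT drought roots. In *BRL3ox* roots it was at 106.5 and 95.6 CPM in control and at 24.6, 37.1 and 21.1 CPM in drought. The 4 groups kept apart except that *BRL3ox* drought replicate 2 lay just above WT control replicate 3. *TPPB* fell 3.71-fold with drought in WT (log2 fold change -1.89, SE 0.21, FDR 0.000454) and 3.66-fold in *BRL3ox* (-1.87, SE 0.21, FDR 0.000539). *TPPH* was at 30.6, 40.5 and 30.2 CPM in WT control and at 13.6, 13.4 and 15.8 CPM in WT drought roots. In *BRL3ox* roots *TPPH* was at 58.8 and 56.8 CPM in control and at 19.5, 33.7 and 22.9 CPM in drought. Its order of groups was that of *TPPB*. Drought and control samples of *TPPH* did not overlap in either genotype, nor did they for 34.5% (WT) and 56.5% (*BRL3ox*) of all tested genes. *TPPH* fell 2.37-fold in WT (log2 fold change -1.25, SE 0.19, FDR 0.0024) and 2.28-fold in *BRL3ox* (-1.19, SE 0.20, FDR 0.00318). In whole roots, fewer cells that express a gene and less of its RNA per cell cannot be told apart, here and in what follows.

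*TPPG* was at 221.8, 119.5 and 268.0 CPM in WT control and at 321.8, 419.4 and 332.1 CPM in WT drought roots. In *BRL3ox* roots *TPPG* was at 78.3 and 100.2 CPM in control and at 247.9, 237.2 and 264.1 CPM in drought. WT control replicate 2 was the lowest WT sample, close to the *BRL3ox* control samples, and *BRL3ox* drought roots reached the level of WT control replicates 1 and 3. The rise with drought was 1.76-fold in WT (log2 fold change 0.82, SE 0.24, FDR 0.0408) and 2.80-fold in *BRL3ox* (1.48, SE 0.29, FDR 0.0055). *TPPI* was at 71.7, 31.5 and 70.2 CPM in WT control and at 82.1, 128.4 and 128.3 CPM in WT drought roots. In *BRL3ox* roots *TPPI* was at 20.03 and 19.4 CPM in control and at 124.5, 127.7 and 100.8 CPM in drought. Here too WT control replicate 2 was the lowest WT sample, and in drought the genotypes overlapped. The rise of *TPPI* was 1.95-fold in WT (log2 fold change 0.97, SE 0.28, FDR 0.0359) and 5.97-fold in *BRL3ox* (2.58, SE 0.35, FDR 0.00111), the largest response of the family in either genotype.

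*TPPF* was low in control roots and had its highest counts in *BRL3ox* drought roots. It was at 3.78, 3.76 and 3.38 CPM in WT control and at 8.22, 7.90 and 5.995 CPM in WT drought roots. In *BRL3ox* roots *TPPF* was at 3.69 and 4.85 CPM in control and at 23.2, 17.3 and 13.7 CPM in drought. Every *BRL3ox* drought sample lay above every other sample. The rise was 2.02-fold in WT (log2 fold change 1.02, SE 0.21, FDR 0.00978) and 4.22-fold in *BRL3ox* (2.08, SE 0.24, FDR 0.000573). Although *TPPF* and *TPPG* are the closest pair by sequence, their levels lay far apart, and the level of *TPPG* per kb was 55.9 times that of *TPPF* in WT control roots and 13.9 times in *BRL3ox* drought roots.

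**Figure D2:**
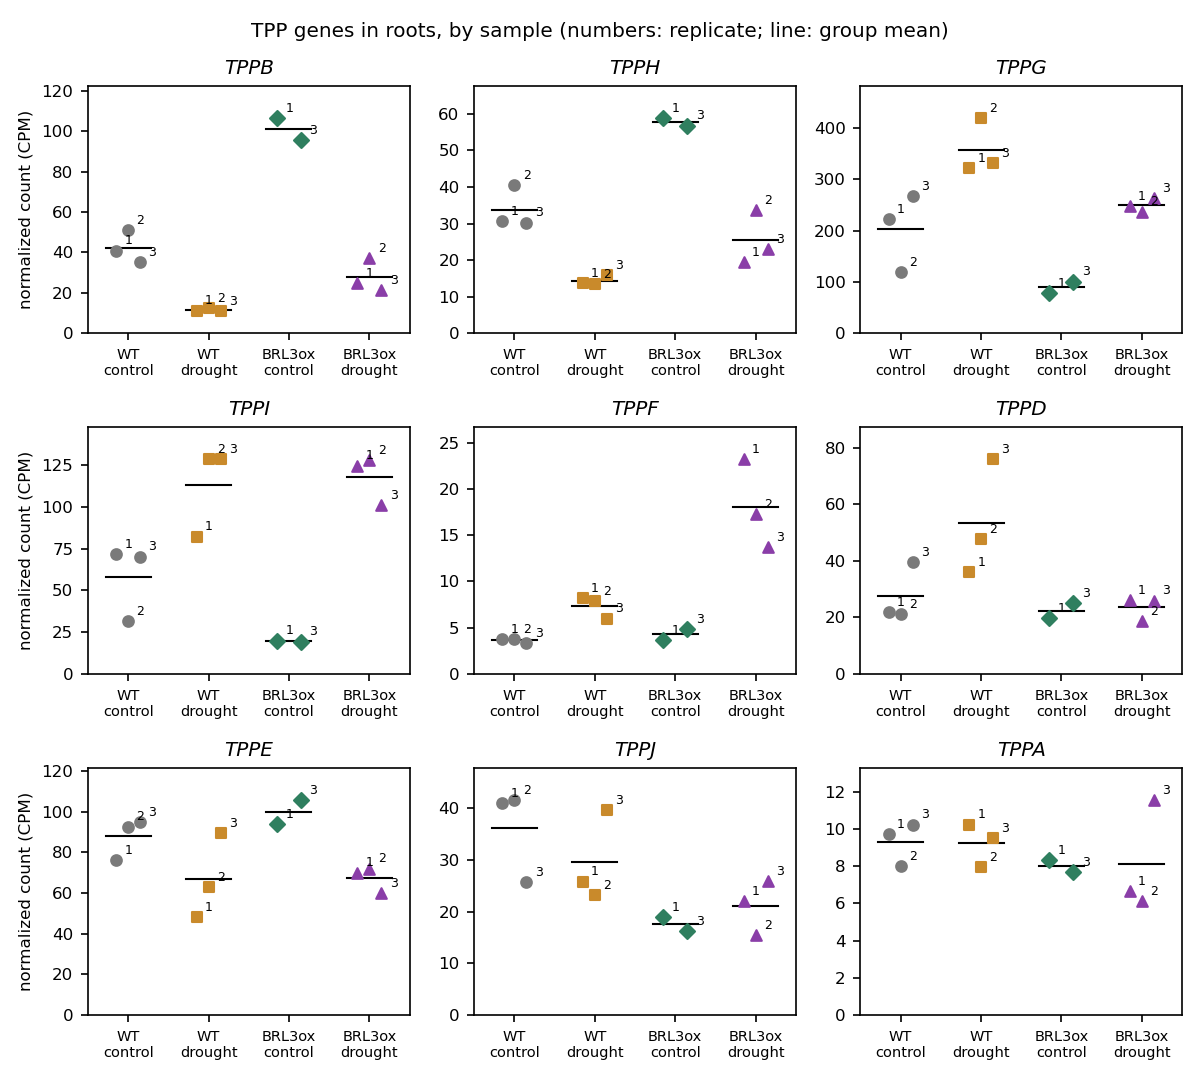
Normalized counts (CPM, vertical axis, from 0) of the 9 tested *TPP* genes in each sample of the 4 groups; each point is 1 sample with its replicate number, and lines are group means. *TPPB* and *TPPH* were lower in drought (for *TPPB* 10.8 to 12.5 CPM in WT drought against 35.2 to 51.0 CPM in WT control), and *TPPG*, *TPPI* and *TPPF* higher.

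The drought calls of *TPPB*, *TPPH* and *TPPF* held in both genotypes with any 1 of the 11 samples left out, and that of *TPPI* held in *BRL3ox*. The calls in WT were weaker for *TPPG*, which lost its call in 9 of 11 such fits (all but those without WT drought replicate 1 or WT control replicate 3; FDR 0.0524 to 0.126, log2 fold change 0.55 to 0.89), and for *TPPI*, which lost it in 6 (without WT drought replicate 2 or 3, *BRL3ox* drought replicate 1, WT control replicate 2, or either *BRL3ox* control sample; FDR 0.0505 to 0.11, log2 fold change 0.68 to 0.97). In *BRL3ox*, the call of *TPPG* was lost without control replicate 1 (log2 fold change 1.32, FDR 0.0673).

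The other 4 tested members were not called in either genotype by edgeR's quasi-likelihood test. *TPPD* was at 21.8, 21.1 and 39.7 CPM in WT control and at 36.0, 47.6 and 75.9 CPM in WT drought roots, with replicate 3 the highest of each group. Its difference in WT (log2 fold change 0.95, SE 0.30, FDR 0.0507) lay just short of the threshold and passed it without WT drought replicate 1 or WT control replicate 3 (1.17 and 1.31, FDR 0.0231 and 0.0101). It was also called with no filter (FDR 0.0437), by DESeq2 (FDR 0.0133) and by the likelihood ratio test (FDR 0.014), whereas in *BRL3ox* roots it was 0.08 (SE 0.34, FDR 0.901). *TPPE*, the second most abundant member per kb in WT control, had a log2 fold change of -0.39 in WT (SE 0.19, FDR 0.174) and -0.57 in *BRL3ox* (SE 0.21, FDR 0.0787). In WT, its difference was called without WT drought replicate 3 (-0.66, FDR 0.0243). *TPPJ* had values of -0.29 (95% interval -0.85 to 0.26) and 0.27 (-0.37 to 0.90), and *TPPA* of -0.01 (-0.51 to 0.48) and 0.02 (-0.53 to 0.57), in WT and *BRL3ox*. *TPPA* ranged only from 6.14 to 11.6 CPM over the 11 samples.

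*BRL3ox* was next compared with WT in each condition. Under control conditions 1 of the 9 tested members was called, where 0.772% of all tested genes were called (0.217% higher and 0.555% lower). This was *TPPB*, which was higher in *BRL3ox* roots by 2.38-fold (log2 fold change 1.25, SE 0.21, FDR 0.0377). The values of the 2 *BRL3ox* control samples also lay outside the range of the 3 WT control samples for *TPPG*, *TPPH*, *TPPI* and *TPPJ*, so that 5 of 9 members did not overlap. Groups as small as these often do not overlap, and 37% of all tested genes did not in this comparison (0.772% were called). The same 5 members had an unadjusted p under 0.05, as did 16% of all tested genes. The log2 fold changes of the 4 that were not called were 0.78 for *TPPH* (SE 0.20, FDR 0.0947), -1.19 for *TPPG* (SE 0.28, FDR 0.0749), -1.55 for *TPPI* (SE 0.33, FDR 0.0597) and -1.04 for *TPPJ* (SE 0.29, FDR 0.111). *TPPJ* was at 41.1, 41.6 and 25.8 CPM in WT control and at 19.0 and 16.3 CPM in *BRL3ox* control roots. The median over the 9 members was -0.22, against -0.004 over all tested genes.

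The control comparison depended on single samples in both directions. The call of *TPPB* was lost in 7 of 11 fits with 1 sample left out (WT control replicate 1 or 3, either *BRL3ox* control sample, WT drought replicate 2 or 3, or *BRL3ox* drought replicate 1; FDR 0.0516 to 0.322), while its log2 fold change stayed between 1.14 and 1.41 over all 11. Without WT control replicate 2, 4 members were called: *TPPB* (1.41, FDR 0.00836), *TPPH* (0.93, FDR 0.0345), *TPPG* (-1.46, FDR 0.00344) and *TPPI* (-1.85, FDR 0.00325), and 4.47% of all tested genes were called in that fit.

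In drought, 3 of the 9 tested members were called by edgeR's quasi-likelihood test, all higher in *BRL3ox* than in WT roots, where 3.51% of all tested genes were called (1.39% higher and 2.12% lower). *TPPB* was higher by 2.42-fold (log2 fold change 1.27, SE 0.21, FDR 0.0142), *TPPF* by 2.45-fold (1.29, SE 0.20, FDR 0.0137) and *TPPH* by 1.78-fold (0.83, SE 0.19, FDR 0.04). The genotypes did not overlap in drought for these 3 genes, nor for *TPPD* and *TPPG*, and 27.9% of all tested genes did not overlap (3.51% were called). *TPPD* was at 26.2, 18.7 and 25.9 CPM in *BRL3ox* drought roots, below the lowest WT drought sample of 36.0 CPM (log2 fold change -1.17, SE 0.30, FDR 0.0545), and passed the threshold without WT drought replicate 1, WT control replicate 2 or WT control replicate 3 (FDR 0.0223 to 0.0486). *TPPD* was also called lower with no filter (FDR 0.0439), by DESeq2 (FDR 0.00446) and by the likelihood ratio test (FDR 0.00451). *TPPG* was -0.52 (SE 0.24, FDR 0.232). *TPPI*, whose control levels lay apart between the genotypes, was at 0.06 in drought (95% interval -0.55 to 0.67, FDR 0.923), and *TPPE* at 0.01 (-0.41 to 0.43, FDR 0.98). The call of *TPPH* was lost in 8 of 11 fits with 1 sample left out (FDR 0.0563 to 0.122, log2 fold change 0.57 to 0.91; it stayed without *BRL3ox* drought replicate 1 and without WT control replicate 2 or 3). In the same comparison, 2 of the 6 root markers were called, *CASP1* (-0.91) and *CASP2* (-0.95), which build the endodermal barrier. The root hair genes *COBL9* (-0.83, FDR 0.0657) and *EXPA7* (-0.85, FDR 0.129), *PYK10* (-0.09) and *MYB36*, a regulator of the endodermis (0.22), were not, although DESeq2, the likelihood ratio test and the fit without WT control replicate 2 also called *COBL9*. *CASP1* and *CASP2* lost their calls in 8 and 4 of 11 fits with 1 sample left out, and the part of root cell types in these values was not tested.

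**Figure D3:**
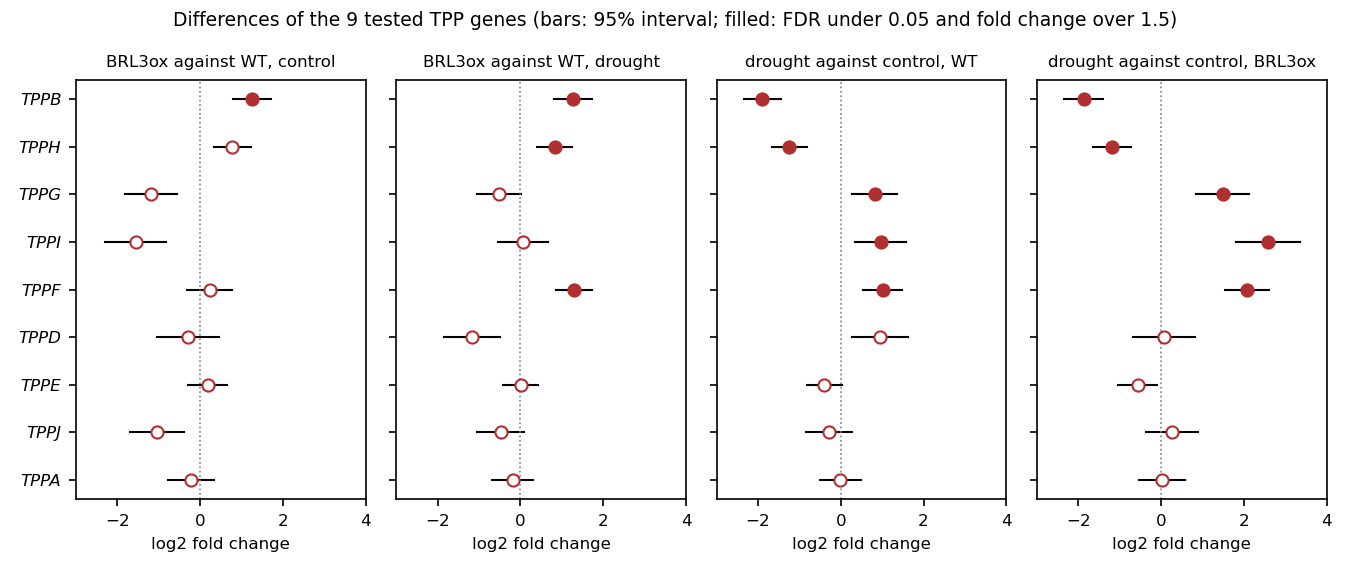
Log2 fold changes (horizontal axis) of the 9 tested *TPP* genes between the genotypes in each condition and between drought and control in each genotype; bars are 95% intervals, and filled points passed FDR under 0.05 and a fold change over 1.5. *TPPB* was filled in all 4 comparisons (1.25, 1.27, -1.89 and -1.87), and *TPPH* in 3.

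Whether the genotypes responded differently was tested by the interaction, in which the WT response is subtracted from that of *BRL3ox*. Genes were called here at an unadjusted p under 0.0025. No member was called in this test by edgeR's quasi-likelihood test, where 0.951% of all tested genes were (0.348% with the higher and 0.603% with the lower value in *BRL3ox*), and 2 of 9 members had an unadjusted p under 0.05 (10.8% of all tested genes). These were *TPPI* (interaction 1.61 on the log2 scale, SE 0.43, p 0.00332 and FDR 0.275 by edgeR) and *TPPF* (1.06, SE 0.32, p 0.00673 and FDR 0.313 by edgeR). Over all genes, only 0.00965% passed an FDR under 0.05. Without WT control replicate 2, *TPPI* had an interaction of 1.90 (edgeR p 4.18e-05, FDR 0.0567) and *TPPG* one of 0.93 (edgeR p 0.00199, FDR 0.163), and without *BRL3ox* drought replicate 3 *TPPF* had one of 1.22 (edgeR p 0.00169, FDR 0.283). *TPPI* was also called with all samples by DESeq2 (1.60, FDR 0.0292) and by edgeR's likelihood ratio test (1.61, FDR 0.0307). For *TPPB* and *TPPH* the drought responses of the genotypes were 0.02 apart (95% interval -0.62 to 0.67) and 0.06 apart (-0.57 to 0.68). Differences within these limits could not be seen with these samples.

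Some members also varied together between replicates of 1 group, though not in every group. In WT control replicate 2, *TPPB* and *TPPH* were the highest and *TPPG* and *TPPI* the lowest of their group. In *BRL3ox* drought replicate 2 *TPPB* and *TPPH* were again the highest and *TPPG* the lowest, but *TPPI* was the highest of its group there (127.7 CPM). WT drought replicate 2 differed from both. There *TPPB* (12.5 CPM) was the highest but *TPPH* (13.4 CPM) the lowest of its group, and *TPPG* (419.4 CPM) and *TPPI* (128.4 CPM) were the highest. Over the 11 samples, Pearson's r of log2 CPM was 0.98 for *TPPB* and *TPPH* (Spearman's rho 0.95) and 0.93 for *TPPG* and *TPPI* (rho 0.78). These values restate the group differences in part, since samples of a group share genotype and treatment. On the deviations from the group means, r was 0.77 and 0.80. The closest pairs by coding sequence did not stand out in this way, with within-group values of -0.01 for *TPPF* and *TPPG*, 0.35 for *TPPE* and *TPPH* and -0.25 for *TPPI* and *TPPJ*. All are descriptions of 11 samples, whose deviations from a group mean are not independent of each other.

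The 7 touch and wound genes varied with *TPPG*, *TPPI*, *TPPB* and *TPPH*, and also with *TPPD*. Their summed level was 2664 to 5266 CPM in WT control, 4741 to 6734 in WT drought, 2074 to 2606 in *BRL3ox* control and 5081 to 5503 CPM in *BRL3ox* drought roots, with none at 0. None of the 7 was called by edgeR's quasi-likelihood test between the genotypes in either condition. By that test 4 in control and 1 in drought had an unadjusted p under 0.05, against 16 and 23.1% of all tested genes. DESeq2, the likelihood ratio test and the fit without WT control replicate 2 each called 3 of them lower in *BRL3ox* control roots (*TCH3*, *TCH4* and *WRKY40*), where they called 4.18, 4.46 and 4.47% of all tested genes. With all samples, 1 of 7 was higher with drought in WT (*TCH4*, against 7.54% of all tested genes) and 3 of 7 in *BRL3ox* (*TCH4*, *WRKY40* and *RRTF1*, against 9.14%). These calls were lost for *TCH4* in WT without WT drought replicate 2 or 3 or WT control replicate 1, for *WRKY40* in *BRL3ox* without control replicate 1, and for *RRTF1* without either *BRL3ox* control sample. Pearson's r of their mean log2 CPM was 0.96 with *TPPG* (within groups 0.87), 0.92 with *TPPI* (0.77), -0.85 with *TPPB* (-0.53) and -0.82 with *TPPH* (-0.28) over the 11 samples. With *TPPD* it was 0.68 (0.80 within groups). For *TPPA*, *TPPE*, *TPPF* and *TPPJ* it lay between -0.48 and 0.43 over the 11 samples. The r given below for other lists were picked from those of all 9 tested members with each list. Roots were washed out of soil before freezing in all groups, and the part of handling in the levels of these members was not tested. *TPPD* and *TPPG* also moved against the 11 photosynthesis genes within groups (r -0.88 and -0.75), of which at most 2 were at 0 in a sample. The 10 phloem markers summed to between 621.7 and 1089 CPM, and none was called between the genotypes by edgeR's quasi-likelihood test or by DESeq2. By the quasi-likelihood test 2 in control and 3 in drought had an unadjusted p under 0.05, against 16 and 23.1% of all tested genes. The likelihood ratio test called *OPS* higher in *BRL3ox* drought roots, where it called 6.82% of all tested genes. With drought in *BRL3ox* roots, 2 of 10 were called (*SUC2* and *PP2-A1*, higher), where 16.1% of all tested genes were called and 9.14% were higher, and the log2 fold changes of the 10 ran from -0.45 (*OPS*) to 0.88. The r of the phloem list with *TPPB* was near 0 over all samples and 0.30 within groups. The 6 root markers deviated against *TPPB* and *TPPH* within groups (r -0.93 and -0.70) and with *TPPA* (0.83), while over all samples r was -0.10, -0.10 and 0.70. The summed level of the root markers was 2155 to 3138 CPM in WT control, 2634 to 3625 in WT drought, 2288 to 2547 in *BRL3ox* control and 2617 to 3631 CPM in *BRL3ox* drought roots, with none at 0. Most of this sum was *PYK10*, with group means of 2291 to 3069 CPM. Their mean log2 CPM, on which r was taken, was 5.34 to 5.72 in WT control and 5.45 to 5.61 in WT drought roots. It was 5.39 to 5.44 in *BRL3ox* control and 4.615 to 5.21 in *BRL3ox* drought roots. The part of root cell types in the levels of these members was not tested.

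**Figure D4:**
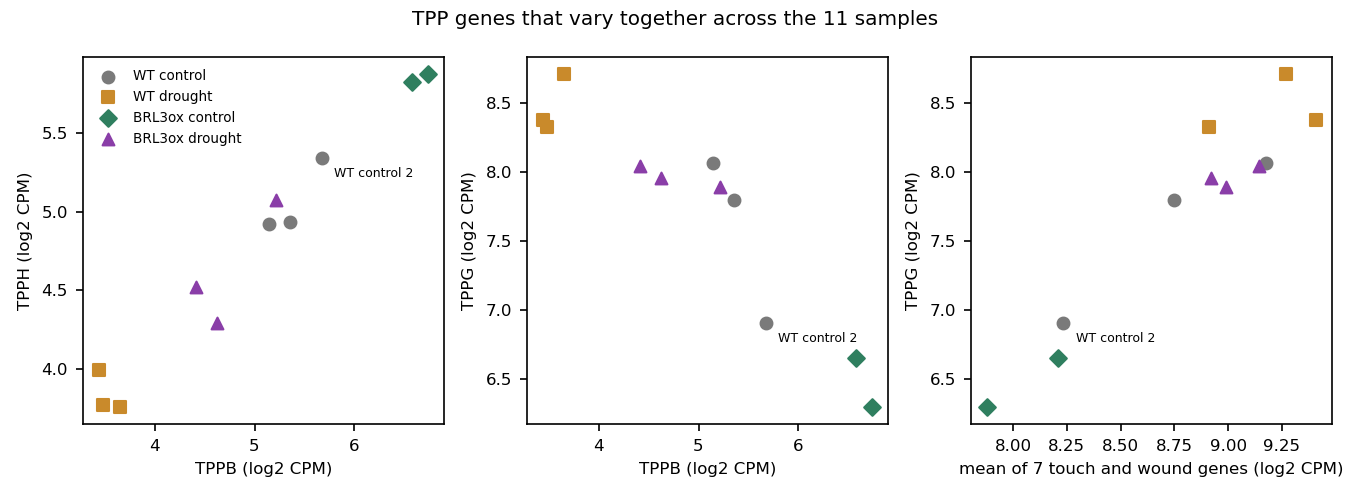
Levels (log2 CPM) in the 11 samples of *TPPH* against *TPPB* (left), *TPPG* against *TPPB* (middle) and *TPPG* against the mean of 7 touch and wound genes (right); each point is 1 sample, with shape and colour for its group. *TPPB* and *TPPH* lie along 1 line (r 0.98), and WT control replicate 2 lies next to the *BRL3ox* control samples in the right panel.

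Outside the family, the genes most like each called member across the 11 samples were taken as the 2 with the highest Pearson's r of log2 CPM among 20709 genes. They were *ERF104* and *ARI2* for *TPPB* (0.983 each), *TGA1* (0.988) and *BET10* (0.986) for *TPPH*, *AT5G08500* (0.992) and *PHI-1* (0.991) for *TPPG*, *DGK1* (0.988) and *MUB4* (0.987) for *TPPI*, and *AT1G14730* (0.976) and *AT5G62800* (0.973) for *TPPF*. *AT5G62800* had few counts, with a mean log2 CPM of -1.25 against 3.76 to 8.42 for the others named. *ERF104* and *TGA1* encode transcription factors and *DGK1* a diacylglycerol kinase. These r are the highest of 20709 values over samples that fall into 4 groups.

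The remaining steps of the pathway were described by a list of 11 *TPS* genes and *TRE1*, of which 10 passed the filter. *TPS2* and *TPS3*, of the same class as *TPS1*, did not, and had a mean of at most 0.0308 CPM in any group. No gene of the list was called between *BRL3ox* and WT by edgeR's quasi-likelihood test in control (0.772% of all genes) or in drought (3.51%). By that test 1 and 2 genes had an unadjusted p under 0.05, against 16 and 23.1% of all tested genes. *TPS7* was called lower in *BRL3ox* control roots by DESeq2, by the likelihood ratio test and without WT control replicate 2 (-0.99, SE 0.21, FDR 0.0597 with all samples by the quasi-likelihood test). With drought, 2 of 10 rose (*TPS7*, *TRE1*) and 2 fell (*TPS9*, *TPS10*) in WT, and 2 rose (*TPS4*, *TPS7*) and 1 fell (*TPS10*) in *BRL3ox* roots, where 12.4 and 16.1% of all genes were called. Without WT control replicate 2, 1 of 10 was called in WT (*TPS10*, -1.24, FDR 0.0215), and *TPS7* (0.47, FDR 0.103), *TPS9* (-0.93, FDR 0.0702) and *TRE1* (0.95, FDR 0.0887) were not. In WT, the call of *TPS10* was kept with any 1 sample left out, whereas those of *TPS7*, *TPS9* and *TRE1* were lost in 8, 4 and 4 of 11 such fits. In *BRL3ox*, *TPS7* was kept in all 11, and *TPS4* and *TPS10* were lost in 3 and 6. *TPS1*, the main active synthase, was at 85.4 ± 10.4 CPM (SD, n = 3) in WT control and 91.1 ± 17.4 CPM (SD, n = 3) in WT drought roots, and its difference in *BRL3ox* (log2 fold change 0.50, SE 0.16, FDR 0.0457) was below the fold change threshold. *TRE1* was at 1.73 to 3.05 CPM in WT control and 4.42 to 6.003 CPM in WT drought roots, and rose 2.23-fold in WT (log2 fold change 1.16, SE 0.31, FDR 0.0262), against 0.89 in *BRL3ox* (SE 0.35, FDR 0.0975). *TPS7* rose by 0.64 in WT (SE 0.18, FDR 0.0364) and by 1.18 in *BRL3ox* (SE 0.21, FDR 0.0041) on the log2 scale, and *TPS10* fell by 1.47 (SE 0.28, FDR 0.0061) and by 0.98 (SE 0.30, FDR 0.0407). *TPS7* and *TPS10* belong to the class of TPS proteins for which little or no synthase activity is known.

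Downstream of T6P, 1 of 6 genes for SnRK1 subunits and 1 of 5 genes that are induced at low energy or in the dark were called with drought in each genotype, where 12.4% (WT) and 16.1% (*BRL3ox*) of all tested genes were called, so that neither share stands apart from all genes. *KINBETA1*, a regulatory subunit, fell in WT (log2 fold change -0.65, SE 0.18, FDR 0.0294) and in *BRL3ox* roots (-0.87, SE 0.19, FDR 0.0107). The call in WT was lost without WT drought replicate 2 or 3 or WT control replicate 1 or 3 (FDR 0.0598 to 0.106), and that in *BRL3ox* without control replicate 3 (FDR 0.0963). Of the low-energy genes, *DIN1* fell in both genotypes (-2.83, SE 0.64, FDR 0.0133, and -3.24, SE 0.67, FDR 0.00733), from 5.05 to 7.79 CPM in WT control to 0.162 to 1.92 CPM in WT drought roots, and the other 4 were not called. The calls of *DIN1* were lost without WT drought replicate 2 (WT, FDR 0.0532) and without *BRL3ox* control replicate 3 (*BRL3ox*, FDR 0.0557). Neither list had a member called between the genotypes or in the interaction by edgeR's quasi-likelihood test or by DESeq2. The likelihood ratio test called *DIN10* lower in *BRL3ox* drought roots, where it called 6.82% of all tested genes. In that comparison 2 of the 5 low-energy genes had an unadjusted p under 0.05 by the quasi-likelihood test, against 23.1% of all tested genes.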

How the data were processed

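Per the labels and the study's methods, the authors made stranded mRNA libraries (TruSeq), read 50 bases from one end, trimmed 5 bases from the 3′ end, filtered by quality (FastQC), mapped to TAIR10 with HISAT2 2.1.0 and counted reads per gene with HTSeq 0.9.1. The strand setting and the annotation release are not given in the sources used here. What the authors deposited are raw counts, whole numbers for each gene, with 1 file for each sample. HTSeq's summary classes (10.495 to 12.923% of counts) were left out of library sizes and tests. The replicates are described as biological, with no statement on how many plants were pooled in each, and p-values measure the spread between these samples.

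filterByExpr (by group) of edgeR 4.0.16 in R 4.3.3 (limma 3.58.1) kept 20718 genes, counts were scaled by TMM, and 1 quasi-likelihood model with 4 group coefficients was fitted to 11 samples (7 residual and 3.48 prior degrees of freedom, common biological coefficient of variation 0.159). No 2 replicates agreed within sampling noise (chi-square per degree of freedom from 8.58). The standard error is the log2 fold change divided by the square root of F, and Benjamini-Hochberg adjustment ran over all tested genes. The fold change threshold of 1.5 is that of the study's results text, where its methods give 2, which was run as an alternative; the interaction threshold is that of its methods. Log2 CPM used a prior count of 2. The fit was also run on counts simulated as independent between samples. That run does not cover deviations shared by samples of equal replicate number, and no value here rests on it. Coding sequences were aligned with mafft 7.526. Coordinates, exon lengths and sequences come from RefSeq TAIR10.1, whose annotation holds 33056 of the 33341 gene IDs.

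Alternatives were RLE normalization, no filter, DESeq2 1.42.0, edgeR's likelihood ratio test, a replicate block, models of only the groups compared, a fold change of 2 (for the interaction, an FDR under 0.05), and leaving out each sample. The text names all 10 members, the genes most like them by r, and, of the pathway lists, *TRE1*, *TPS1* and genes called in at least 2 comparisons; other names in the lists are members called once or markers. Members and lists were chosen with earlier results of these data known.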

Additional observations from a re-analysis of the deposited data

How the results depend on the processing

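The number of members called between the genotypes under control conditions (1) was 2 with no filter, 5 with DESeq2 and 5 with the likelihood ratio test (*TPPB*, *TPPG*, *TPPH*, *TPPI* and *TPPJ* in both), 4 with the replicate block (*TPPB*, *TPPG*, *TPPH* and *TPPI*), 0 in the model of only the groups compared, and 0 to 4 with 1 sample left out. The percentage of all tested genes called moved as well, to 1.17, 4.18, 4.46, 3.47 and 0.00965% in the same order of settings. It was 4.47% without WT control replicate 2, where 4 members were called. The number in drought (3) stayed between 2 and 4, where 0.524 to 6.82% of all tested genes were called at a fold change over 1.5. The number for the WT response (5) was 3 at a fold change over 2, 3 with only the groups compared and 3 to 6 with 1 sample left out. All tested genes were called at 8.4% with only the groups compared, and at 8.01 to 16.1% with 1 sample left out. The number for the *BRL3ox* response (5) changed only without *BRL3ox* control replicate 1. Where each group kept at least 2 samples, 11.7 to 18.6% of all tested genes were called for that response at a fold change over 1.5. For the interaction (0, where 0.951% of all tested genes were called), the number was 1 (*TPPI*) with no filter, DESeq2 and the likelihood ratio test. These settings called 0.854, 2.1 and 1.9% of all tested genes. The number was 0 to 2 with 1 sample left out, and 2 without WT control replicate 2, where 1.46% of all tested genes were called. Signs changed for values near 0. *TPPA* in the WT response was 0.002 with RLE and 0.001 with DESeq2, and the interactions of *TPPB* and *TPPH* were -0.18 and -0.11 with the replicate block. With 1 sample left out, the log2 fold changes that changed sign ran from -0.49 to 0.062 (*TPPD*, control), -0.18 to 0.28 (*TPPE*, drought), -0.13 to 0.16 (*TPPI*, drought), -0.11 to 0.085 (*TPPA*, WT response), -0.32 to 0.19 (*TPPA*, *BRL3ox* response), -0.085 to 0.27 (*TPPD*, *BRL3ox* response), and, for the interaction, -0.31 to 0.20 (*TPPA*), -0.24 to 0.18 (*TPPB*), -0.36 to 0.092 (*TPPE*) and -0.20 to 0.21 (*TPPH*). The cause of these changes was not tested. The labels do not say that equal replicate numbers mark a shared batch. Deviations of same-numbered samples from their group means correlated at a mean r of 0.15 over 15 pairs (-0.088 to 0.412, 11 over 0.1). Of 11 samples, 10 correlated best with their own number, which is a hint from the data and not from the design. The pairs are not independent, since the 2 *BRL3ox* control samples deviate from their mean by equal amounts in opposite directions. The replicate block changed the number of calls by over 1.5 times only under control conditions. With the block, *TPPD* was also called in drought (-1.12, FDR 0.0119) and in the WT response (0.96, FDR 0.00864), as it was with no filter, DESeq2 and the likelihood ratio test. The 2 *BRL3ox* control samples limit every comparison that uses them.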
